A study of Homo sapiens with 15 samples.

Results

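The genes described here are 36 genes of the G1/S transition and of DNA replication, most of them known targets of the E2F transcription factors, measured in A2058 cells, an established human melanoma line. They were taken from a written list of gene names, and their probes were found through the RefSeq accession that the array design gives each probe. All 36 genes had a probe. They are 36 of the 26826 gene-level features tested, each feature being the brightest probe of a gene or an unnamed transcript. The cells were exposed for 8 hours to NP at 3 μM, metformin (MET) at 5000 μM or phenformin (PHEN) at 50 μM. The NP cultures were compared with cultures given its solvent DMSO, and those of both biguanides with cultures given water (W), with 3 arrays per group from independent experiments and 15 arrays in all. Neopetasin is the compound that the series title gives for the arrays labelled NP, whereas the published methods give petasin at the same dose and time in the same line, and the arrays do not show which it was. Metformin and phenformin are biguanides, known to inhibit complex I of the respiratory chain, and the study set NP beside them. The line, the medium and the duration were common to all groups, and a single line and time point limit what the arrays can show.

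In proliferating cells, cyclin E and its kinase partner inactivate the retinoblastoma protein late in G1, which frees E2F factors to switch on the genes of the replication machinery. The origin recognition complex, CDC6 and CDT1 load the MCM helicase on DNA during G1, and MCM10, CDC45 and the GINS complex turn the loaded helicase into an active one at the start of S phase. Polymerases, the sliding clamp PCNA and its loader RFC then copy the DNA, while enzymes of nucleotide synthesis supply the precursors and histone chaperones package the product. Most of these mRNAs peak around the G1/S boundary, so that as a group they are commonly read as a mark of cells that enter S phase.

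Promoter sequence was set beside the expression data because binding of E2F is what these genes are best known to share. The RefSeq windows (GRCh38.p14) run from 250 bases before to 50 bases after each gene's start, and 32 of the 36 genes had one that was used. Both strands were searched for 4 forms of the E2F motif, TTTCCCGC, TTTCGCGC, TTTGGCGC and TTTGCCGC, and matches were allowed to overlap, as they did in MCM2 and MCM6. At least 1 form was found in 18 of the 32 genes (56.2%), against 3.99% of all 27305 gene symbols with a window, many of which are not protein-coding. The genes were listed as E2F-regulated and replication genes, so the higher share of E2F motifs is no independent result about them. CCAAT, the motif of the factor NF-Y, was found in 21 of the 32 genes (65.6%) and in 39.7% of all symbols. RRM2, FEN1 and CCNE1, whose values are given with the comparisons, held none of the 4 E2F forms in their windows. The matches in genes that the results turn on are shown on the strand of the gene with 11 bases on either side and the motif in capitals. They lie at chr17:40287875-40287904 (CDC6, plus strand), chr16:58392455-58392484 (GINS3, plus), chr20:5126663-5126692 (PCNA, minus), chr1:212035729-212035758 (DTL, plus), chr1:35769965-35769994 (CLSPN, minus), chr12:132687342-132687371 (POLE, minus) and, for the match next to the start of MCM7, chr7:100101388-100101417 (minus).
CDC6: ggccattcggaTTTGGCGCgagcgcggctg
GINS3: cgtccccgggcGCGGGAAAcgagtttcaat
PCNA: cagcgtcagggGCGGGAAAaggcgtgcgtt
DTL: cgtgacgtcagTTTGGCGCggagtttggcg
CLSPN: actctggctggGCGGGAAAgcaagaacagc
POLE: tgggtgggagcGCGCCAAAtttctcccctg
MCM7: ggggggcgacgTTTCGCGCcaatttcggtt
The motifs shown for CDC6, DTL and MCM7 read in the direction of the gene, and those shown for the other 4 genes read in the opposite direction. The match of CDC6 covers positions 8 to 15 of the transcript, and that of PCNA positions -59 to -52 before its start. The other 5 lie at the start or just before it.

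Levels are log2 spot intensities after subtraction of the 75th percentile of the same array, so that a level of 1 is 1 log2 unit above that percentile and levels of different probes are not comparable with each other. The 36 genes were covered by 43 probes, all well above background on all 15 arrays by the flag of the extraction software, and no probe was saturated. On each array 25804 to 45044 probes were well above background, and the highest counts were those of replicate 1 of water (45044) and of metformin (44451). Of 10 melanocyte lineage markers, 9 were well above background on all 15 arrays and TYR on 13, the lineage being that of melanoma. Of 4 epithelial markers KRT8 and KRT18 were above it on all 15 arrays and EPCAM and CDH1 on none, and of the leukocyte and endothelial markers PTPRC, CD14, PECAM1, VWF and CDH5 were above it on all, at levels below the 75th percentile of the array, and CD3E on 11. The arrays lay on 4 slides, and none held both vehicles: replicates 1 and 2 of DMSO and NP shared a slide, as did those of water, metformin and phenformin, and replicate 3 of each set lay on a slide of its own. Each treated array and its vehicle array of the same number were therefore on 1 slide. The SD between the 3 arrays of a group, as the median over the 36 genes, ran from 0.085 for phenformin to 0.19 for water, and the highest single SD was that of RRM2 on the water arrays (0.43).

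A gene was called different when limma gave an adjusted p of at most 0.05 (Benjamini-Hochberg over all features) and a fold change of at least 1.5 in either direction, from a fit of the 5 groups and the replicate number over all 15 arrays. None of the 36 genes was called in any of the 3 comparisons with the solvent. Over all features 0.0373% were called for NP, 0% for metformin and 0.0261% for phenformin, so that the zero counts of the 36 genes are near the background. The smallest adjusted p of limma among the 36 genes was 0.99987 for NP, 0.999938 for metformin and 0.999896 for phenformin. At an unadjusted p of at most 0.05, CDC6 and FEN1 were lower with NP, where 1.88% of all features were lower and 2.8% higher by that rule. CCNE2 was lower with metformin, where 1.07% were lower and 1.38% higher. No gene of the set passed with phenformin, where 1.54% were lower and 0.816% higher, and none was higher by that rule with any compound. With the replicate number as a block within each vehicle set, 4, 8 and 3 of the 36 genes had such a p for NP, metformin and phenformin, all lower, against 11.5%, 9.29% and 7.1% of all features in either direction. With phenformin these were CCNE2, CDC6 and GINS3, and no gene was called. The 95% interval of the fold change lay within 1.5-fold of no change for 34 of 36 genes with NP, all but CDC6 and RRM2, for 33 with metformin, all but CCNE2, RFC3 and RRM2, and for 33 with phenformin, all but CCNE2, CDC6 and RRM2. The methods' t-test, which reads the spread of the pairs alone, gave 6, 10 and 0 of the 36 genes an unadjusted p of at most 0.05, against 7.6%, 11.7% and 5.22% of all features, and none of these genes reached 1.5-fold.

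**Figure D1:**
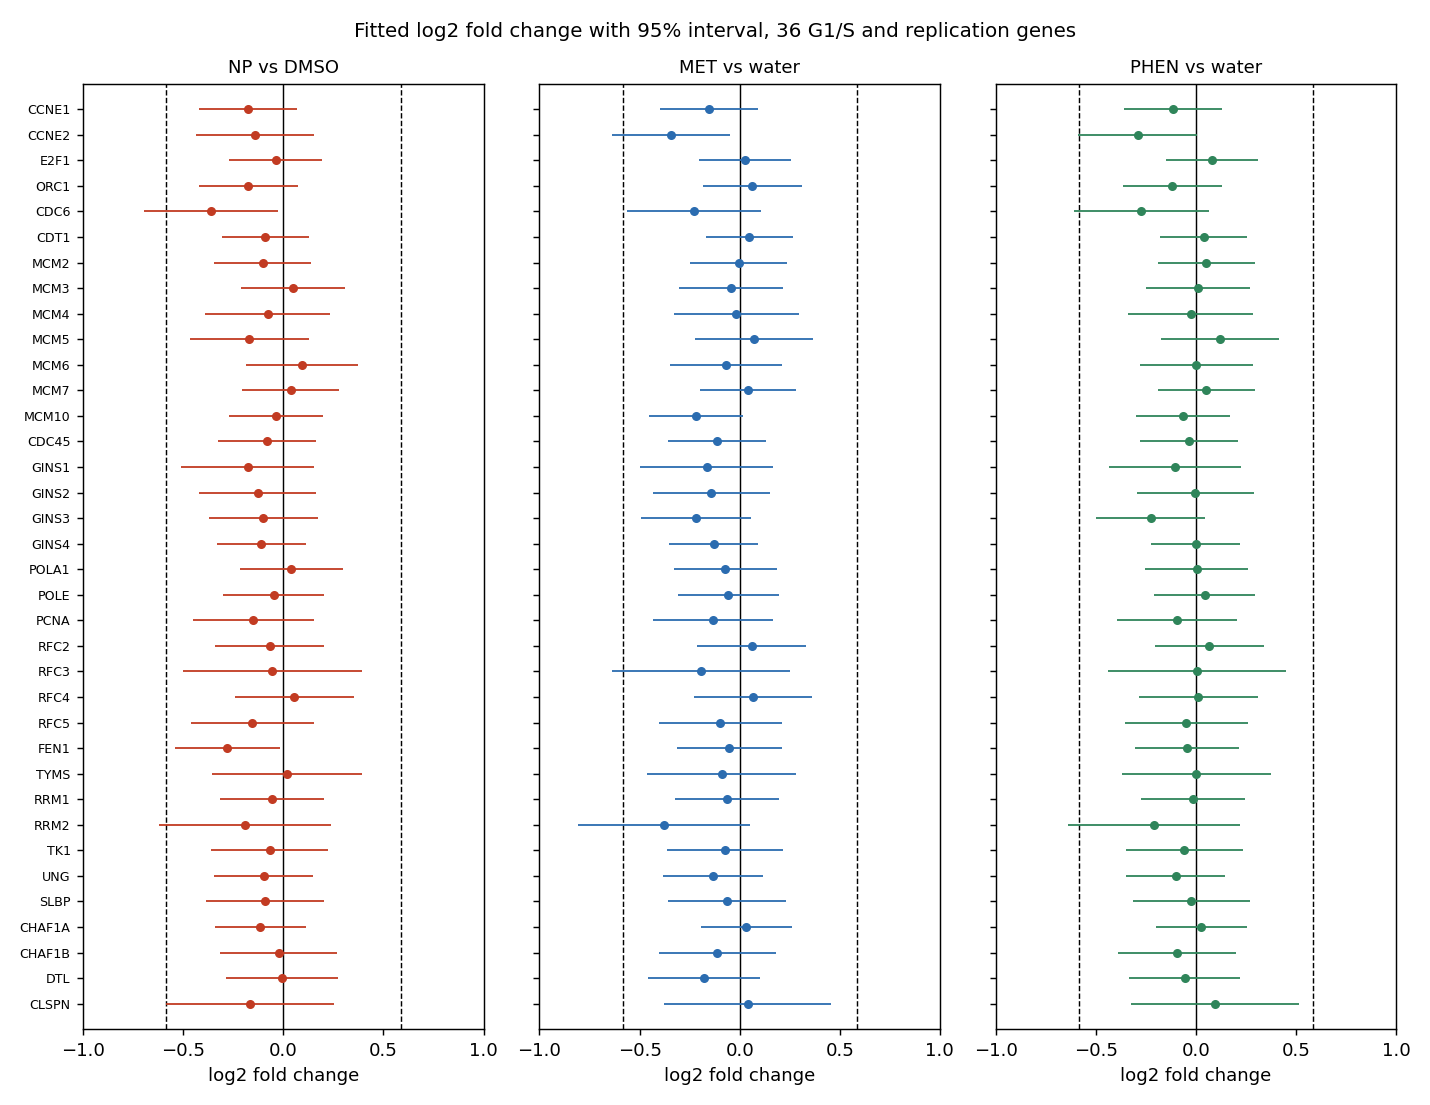
Fitted log2 fold change (x axis) of the 36 genes (y axis, ordered by role) for NP against DMSO, MET (metformin) against water and PHEN (phenformin) against water. Points are limma's estimates over 3 arrays per group, bars their 95% intervals, and dashed lines mark 1.5-fold in either direction. Most intervals hold 0, and 34, 33 and 33 of 36 lie between the dashed lines.

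With NP, the set was slightly lower as a group. The fitted log2 fold change was below 0 for 30 of 36 genes with a median of -0.091, against a median of -0.014 and 53.8% below 0 over all features. The median difference of the 36 genes was -0.15, -0.079 and -0.010 in the 3 pairs, so that it was smallest in the pair on the second slide. Genes lower in all 3 pairs numbered 16 of 36 (44.4%), against 18.9% of all features, and 1 gene, MCM3, was higher in all 3 pairs, against 14.3%. Among features above background on all arrays, as the 36 genes are, 21.9% were lower in all 3 pairs. In RNA of a whole culture, fewer cells in S phase and less of these mRNAs per cell cannot be told apart.

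CDC6, the loader of the MCM helicase, had the largest fitted difference with NP, although with normexp background correction it was -0.21 and that of FEN1 -0.25. Its level was -0.34, -0.51 and -0.33 on the DMSO arrays and -0.64, -1.04 and -0.58 on the NP arrays. Every NP array was below every DMSO array, and the log2 fold change was -0.36 (SE 0.15, a fold of 0.779) with an unadjusted p of 0.038 and an adjusted p of 0.99987 in limma. FEN1, the nuclease that trims Okazaki fragments, was at 3.95, 3.94 and 4.26 with DMSO and at 3.75, 3.66 and 3.89 with NP. Its groups did not overlap either, and the log2 fold change was -0.28 (SE 0.12) with an adjusted p of 0.99987 in limma. RRM2, the regulated subunit of ribonucleotide reductase, was at 3.20, 3.16 and 2.91 with DMSO and at 2.98, 3.08 and 2.63 with NP. These ranges overlapped, although each NP array was below its DMSO partner, and the log2 fold change was -0.19 (SE 0.19). GINS1 was the only further gene of the set whose NP arrays all lay below the DMSO arrays. Such separation, NP below DMSO, was seen for 3.42% of all features, and the opposite one, seen for 3.02%, for none of the 36 genes.

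Among the regulators, CCNE1 and CCNE2, the cyclins E, had log2 fold changes of -0.18 and -0.14 with NP and were lower in all 3 pairs, while E2F1, the activator that they release, was at -0.039. The second, dimmer probe of CCNE2 gave a mean pair difference of -0.36 with NP, and the mean of both probes had an unadjusted p of at most 0.05 in limma. The 9 licensing genes were split, with 6 below 0. ORC1 and CDT1 were at -0.18 and -0.091, and the MCM subunits ran from -0.17 for MCM5 and -0.10 for MCM2 to 0.046 for MCM3 and 0.093 for MCM6. All 6 genes of helicase activation (MCM10, CDC45 and GINS1 to GINS4) were below 0, from -0.18 for GINS1 to -0.035 for MCM10. Of the 8 synthesis genes 6 were below 0, with the clamp PCNA at -0.15, its loader subunits RFC5, RFC2, RFC3 and RFC4 at -0.16, -0.069, -0.054 and 0.054, and the primase-coupled polymerase subunit POLA1 at 0.040. TYMS, which makes thymidylate, was at 0.018 and was the only one of the 5 nucleotide genes not below 0, beside RRM1 at -0.055, TK1 at -0.069 and the uracil glycosylase UNG at -0.099. SLBP, which binds histone mRNA, and the histone chaperone subunits CHAF1A and CHAF1B were at -0.091, -0.12 and -0.024. DTL, which directs CDT1 to degradation, was at -0.0059, and CLSPN, the checkpoint adaptor claspin, at -0.17 with the widest spread among the DMSO arrays (SD 0.38).

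With metformin, the set was again slightly lower, and the genes of helicase activation were lower together. The fitted log2 fold change was below 0 for 27 of 36 genes with a median of -0.072, against a median of 0.0044 and 49.0% below 0 over all features. The median difference of the pairs was -0.048, -0.10 and -0.12. Of the 36 genes 17 (47.2%) were lower in all 3 pairs, against 20.3% of all features and 24.0% of those above background on all arrays. MCM5 was the 1 gene higher in all 3 pairs, against 22.3% of all features. MCM10, CDC45 and GINS1 to GINS4 were lower in all 3 pairs without exception, with log2 fold changes from -0.22 (GINS3) to -0.11 (CDC45), and none of these 6 passed the test of limma. Of the 9 licensing genes 5 were below 0, 1 of them in all 3 pairs, with a median of -0.0046. The 8 synthesis genes ran from -0.19 (RFC3) to 0.066 (RFC4), and the 5 nucleotide genes from -0.38 (RRM2) to -0.062 (RRM1). CHAF1B, a subunit of the chromatin assembly factor, and DTL were lower in all 3 pairs at -0.11 and -0.18.

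RRM2 had the largest difference with metformin. Its level was 2.06, 2.89 and 2.60 on the water arrays and 1.73, 2.38 and 2.31 on the metformin arrays. Each metformin array was below its partner, but replicate 1 was low in both groups, so that the ranges overlapped, and the log2 fold change was -0.38 (SE 0.19, a fold of 0.769) with an adjusted p of 0.999938 in limma. CCNE2 was at 3.00, 3.13 and 3.30 with water and at 2.71, 2.94 and 2.74 with metformin. All metformin arrays were below all water arrays, as for 2.28% of features, whereas 3.48% were separated the other way and none of the 36 genes was. The log2 fold change of CCNE2 was -0.34 (SE 0.13, a fold of 0.788) with an unadjusted p of 0.027 and an adjusted p of 0.999938 in limma. The dimmer probe of CCNE2 gave a mean pair difference of -0.23, and -0.22 with phenformin. CDC6 was at -0.67, -0.34 and -0.22 with water and at -0.93, -0.54 and -0.44 with metformin, again lower in every pair with overlapping ranges, at a log2 fold change of -0.23 (SE 0.15).

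With phenformin, the pairs went different ways. The median difference of the 36 genes was 0.12 in pair 1 and -0.073 and -0.16 in pairs 2 and 3, and 7, 28 and 31 of the 36 genes were lower in the respective pairs. Over all features the medians of these pairs were -0.019, -0.026 and -0.012. Pair 1 rests on the water array with the most probes above background, which was also low for these genes. On it 27 of the 36 genes were below their own mean over all 15 arrays, with a median deviation of -0.13, against 4 and 5 genes and deviations of 0.11 and 0.13 on the other water arrays. The metformin array of the same number deviated by -0.17, with 29 genes below their mean, and the phenformin arrays by 0.025, 0.050 and -0.022. Over the 3 pairs the median fitted log2 fold change was -0.019 with 21 of 36 genes below 0, against -0.034 and 59.5% over all features, and scaled to the median of each array 1 of the 36 genes was below 0 and the median was 0.25, where that of all features moved to 0.24. Without replicate 1 of every group it was -0.11 with 30 genes below 0, and without replicate 3 it was 0.030 with 13 below 0. Lower in all 3 pairs were 5 genes (13.9%), CCNE1, CCNE2, ORC1, CDC6 and FEN1, a share near the 14.8% of all features, and 1 gene, MCM5, was higher in all, against 12.2%.

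With phenformin the largest differences were those of CCNE2, CDC6 and GINS3, and they depended on the scaling and on replicate 3. Scaled to the median of each array, which moved the median of all features to 0.24, they were -0.018, 0.0011 and 0.048, and without replicate 3 they were -0.11, -0.19 and -0.14. CCNE2 was at 2.90, 3.00 and 2.65 with phenformin, each below its water partner, and the log2 fold change was -0.29 (SE 0.13) with an unadjusted p of 0.054 in limma. Its phenformin array of replicate 3 was the lowest of all 15 arrays, and that of replicate 1 was 0.10 below its partner. CDC6 was at -0.76, -0.64 and -0.65, which gave -0.27 (SE 0.15). GINS3, a subunit of the GINS complex, was at 4.34, 4.66 and 4.71 with water and at 4.36, 4.37 and 4.31 with phenformin. The first pair of GINS3 was level and the others were lower, so that the groups overlapped at a log2 fold change of -0.23 (SE 0.12). For none of the 36 genes did the phenformin arrays all lie below or all above the water arrays, which was the case for 4.31% and 3.83% of all features. By role, the regulators ran from -0.29 (CCNE2) to 0.080 (E2F1) and the licensing genes from -0.27 (CDC6) to 0.12 (MCM5). All 6 genes of helicase activation were below 0, although GINS2 and GINS4 only at -0.0033 and -0.0020. In pair 1 none of these 6 was lower, at a median of 0.12. Lower in all 3 pairs were 0 of the 6, against 14.8% of all features. The synthesis genes ran from -0.094 (PCNA) to 0.066 (RFC2). The nucleotide genes ran from -0.21 (RRM2) to 0.0026 (TYMS), the histone genes from -0.094 (CHAF1B) to 0.028 (CHAF1A), and DTL and CLSPN were at -0.057 and 0.096.

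**Figure D2:**
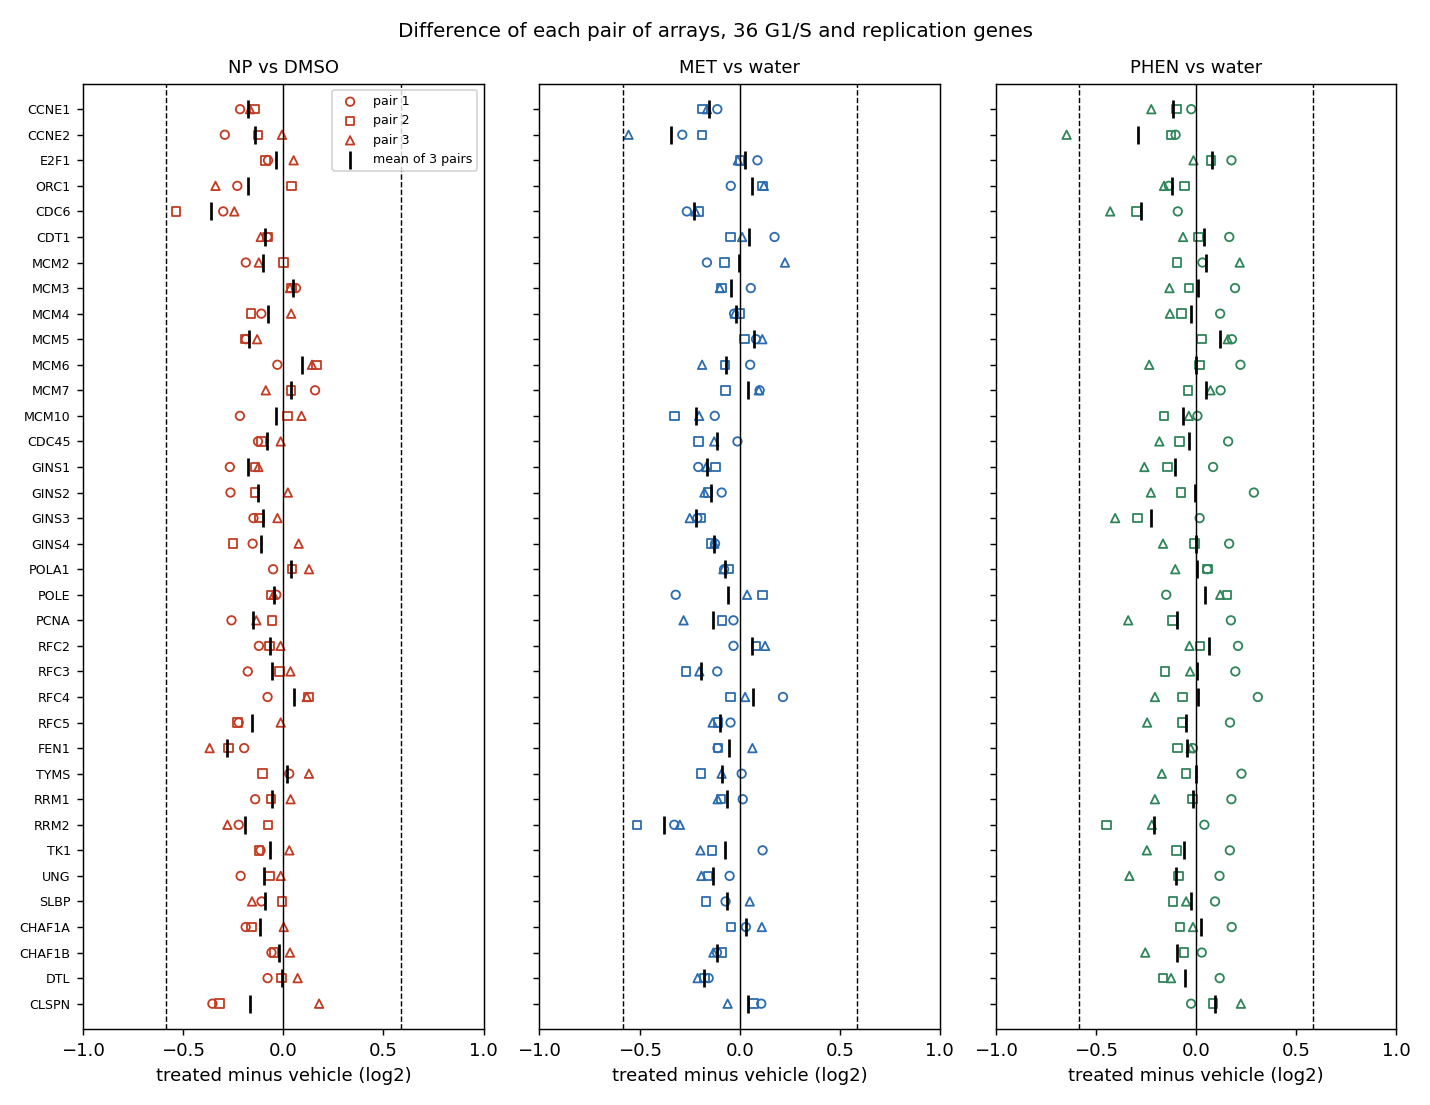
Difference between each treated array and the vehicle array of the same replicate number (x axis, log2) for the 36 genes (y axis, by role). Symbols stand for the pairs, black ticks for their mean, and dashed lines mark 1.5-fold. Most NP and metformin symbols lie left of 0, and the phenformin symbols of pair 1 (circles) lie right of those of pair 3 (triangles) for most genes.

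CCNE1, CCNE2 and CDC6 were lower in all 3 pairs with each compound, as were 1.28% of all features. Scaled to the median of each array, none of the 36 genes was, against 0.154% of all features. With quantile normalization 5 were, against 1.72%, CCNE1 and CDC6 among them but not CCNE2. With normexp background correction 5 were, against 1.15%, CCNE1, CCNE2 and CDC6 among them. The fitted log2 fold changes of CCNE1 were -0.18, -0.15 and -0.11 (SE 0.11 each) for NP, metformin and phenformin, and those of CDC6 -0.36, -0.23 and -0.27. The metformin and phenformin values share the water arrays, so their likeness is not independent. NP and DMSO arrays are shared with neither. Over the 36 genes the log2 fold changes of NP correlated with those of metformin at r = 0.27 (Spearman's rho 0.21) and with those of phenformin at r = 0.45 (rho 0.41), against r = 0.069 and 0.033 over all 26826 features. Genes are not independent replicates, and these values are a description across genes. All features include dimmer ones, with a median SE of 0.19 with NP against 0.12 for the 36 genes. No correlation was taken over features above background on all arrays alone.

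Whether the effect of NP differed from that of a biguanide was tested as the difference of the log2 fold changes against the own vehicles. None of the 36 genes was called for NP minus metformin or for NP minus phenformin, where 0% and 0% of all features were called. None reached an unadjusted p of 0.05 in limma, as 2.78% and 2.43% of all features did. MCM5, a subunit of the replicative helicase, came nearest with phenformin. It was lower with NP by pair differences of -0.19, -0.19 and -0.13, and higher with metformin by 0.082, 0.025 and 0.11 and with phenformin by 0.18, 0.027 and 0.16. The difference of effects was -0.29 for NP minus phenformin (95% interval -0.71 to 0.13, unadjusted p of 0.15, adjusted p of 0.999733 in limma) and -0.24 for NP minus metformin. The dimmer second probe of MCM5 gave -0.14 with NP, 0.077 with metformin and 0.00058 with phenformin. The doses of the compounds differ, and they were not compared at a matched one.

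**Figure D3:**
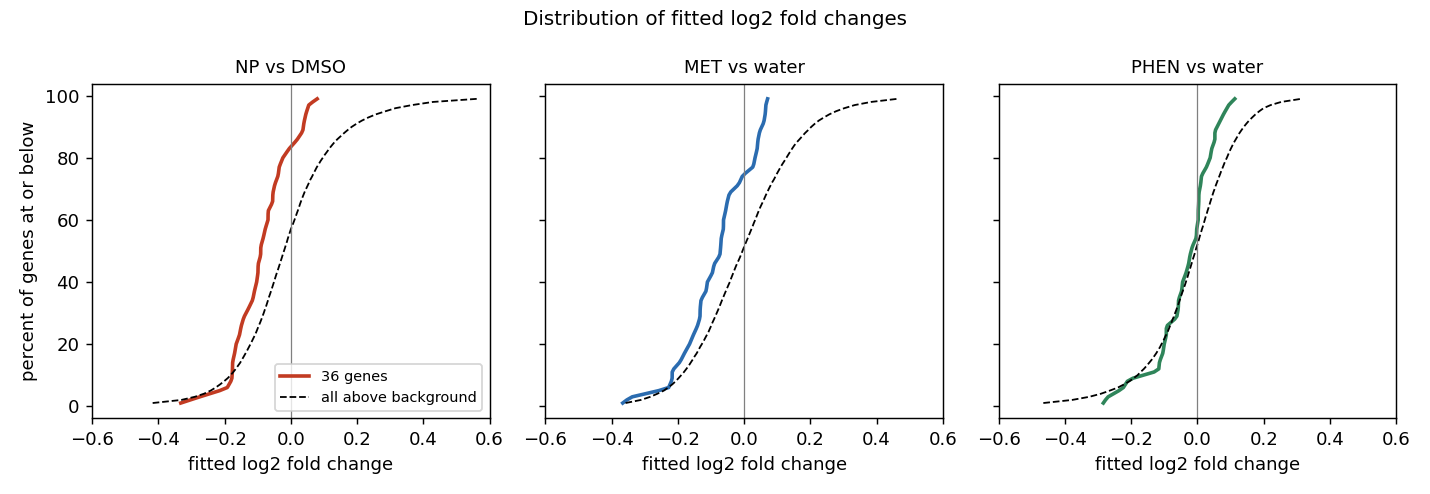
Percent of genes (y axis) with a fitted log2 fold change at or below the value on the x axis, for the 36 genes (coloured) and all features above background on all 15 arrays (dashed), in each comparison. The coloured curve lies left of the dashed one at the median for NP (-0.091) and metformin (-0.072) and close to it for phenformin (-0.019), and it is narrower at the upper end in all 3 panels.

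The fold changes were also set out by the E2F motif, with no test. The median log2 fold change of the 18 genes with a match and the 14 without was -0.073 and -0.087 for NP, -0.081 and -0.068 for metformin, and 0.0033 and -0.046 for phenformin.

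The levels of 6 genes separated the arrays by vehicle set, in shares near those of all features. On the 6 arrays of DMSO and NP, MCM5, MCM7, POLE and CLSPN were lower than on all 9 arrays of water, metformin and phenformin, which is 11.1% of the 36 genes against 10.4% of all features. PCNA and DTL were higher on all 6, 5.56% against 5.16%. With this scaling these counts are at the background and are no result about the set. POLE, the catalytic subunit of the leading-strand polymerase, ranged from -0.58 to -0.41 (median -0.46) on the first set and from 0.049 to 0.46 (median 0.26) on the second. MCM5 ranged from 3.55 to 4.05 and from 4.19 to 4.47, and MCM7 from 7.28 to 7.72 and from 7.84 to 8.08. PCNA ranged from 5.59 to 5.90 on the DMSO and NP arrays and from 5.08 to 5.54 on the others, and DTL from 3.31 to 3.49 and from 2.65 to 3.24. The difference of the medians was larger than any fitted effect of a compound on the same gene for all 6. These 6 genes were picked for the separation of the sets, so their large difference is no independent result. The 2 sets differ in vehicle and in slides, which cannot be told apart, and the summed level of 4 epithelial markers, carried by KRT18, moved with them too (6.17 to 6.44 on the DMSO and NP arrays, 6.62 to 6.80 on the others), and its part in the result was not tested. Scaled to the array median instead, none of the 36 genes was lower and RRM2 alone was higher on all DMSO and NP arrays. With normexp background correction 8 genes were lower (22.2%, against 9.55% of all features) and none was higher (against 5.81%). With quantile normalization 3 were lower (8.33% against 9.24%) and 4 higher (11.1% against 6.90%), PCNA and DTL among the latter.

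**Figure D4:**
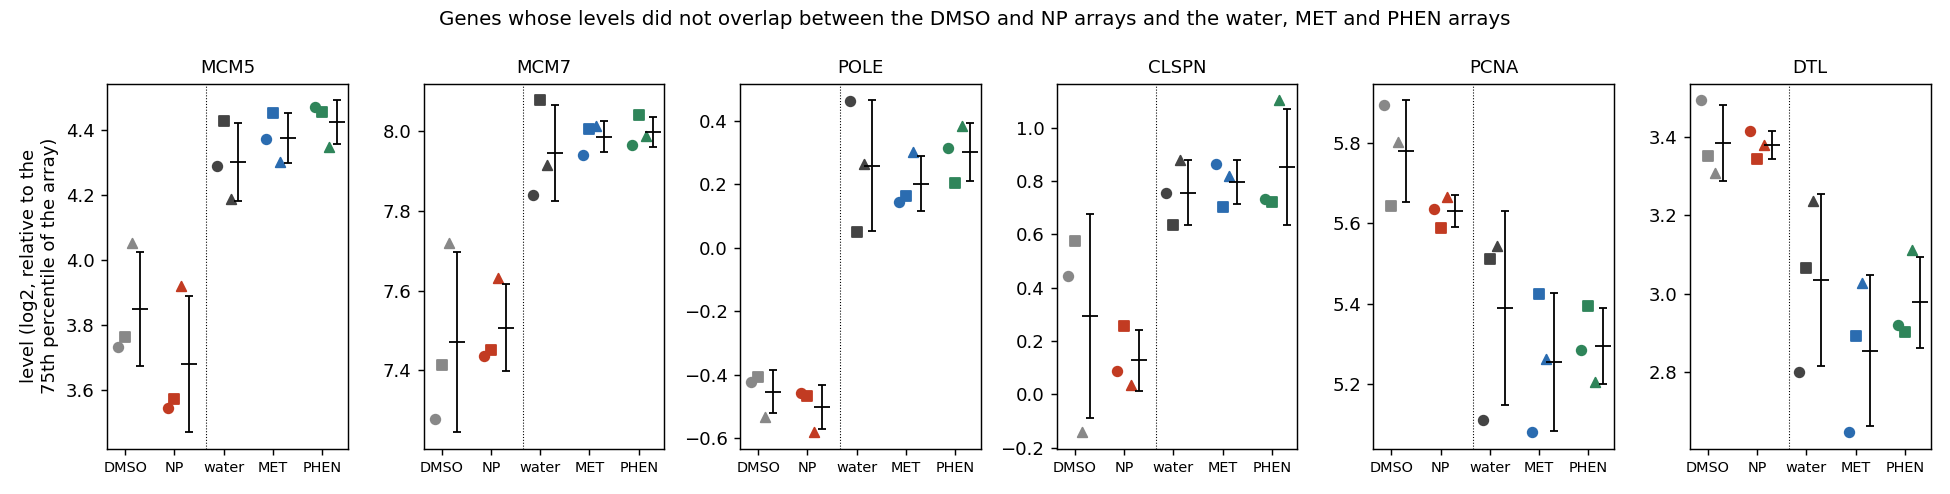
Level (y axes, log2 relative to the 75th percentile of the array, different ranges) of the 6 genes whose values did not overlap between the DMSO and NP arrays (left of the dotted line) and the water, metformin and phenformin arrays. Symbols are replicates 1 to 3 and bars the mean and SD of 3 arrays. MCM5, MCM7, POLE and CLSPN are lower on the left and PCNA and DTL higher.

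A comparator of the other vehicle changes the counts of the biguanides. Against DMSO, 3 of the 36 genes were called for metformin and 2 for phenformin by limma, where 17.0% and 10.3% of all features were called. RRM2 was at -0.95 (adjusted p of 0.0079) and -0.78 (adjusted p of 0.023) and POLE at 0.66 and 0.75, and CCNE2 was called with metformin alone at -0.60. Against water the same genes were at -0.38 and -0.21, at -0.056 and 0.043, and at -0.34.

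Of 45 other replication genes 44 were tested, and none was called with any compound. Their fitted log2 fold changes were below 0 for 29, 37 and 32 genes with NP, metformin and phenformin, at medians of -0.034, -0.097 and -0.046. These are 65.9%, 84.1% and 72.7% of the genes, against 53.8%, 49.0% and 59.5% of all features. Lower in all 3 pairs were 12, 21 and 4 genes (27.3%, 47.7% and 9.09%), against 18.9%, 20.3% and 14.8% of all features. NASP, a histone chaperone, and GMNN, geminin, the inhibitor of CDT1, had the lowest values with NP at -0.29 (SE 0.24) and -0.29 (SE 0.13), and the origin recognition subunit ORC3 and the primase subunit PRIM1 the highest at 0.12 and 0.14. With metformin DBF4 and CDC7, the regulator and the kinase that fire origins, were at -0.28 and -0.23, and SAMHD1, which degrades nucleotide precursors, and POLD2, a subunit of the lagging-strand polymerase, at 0.20 and 0.25. With phenformin RRM2B, another subunit of ribonucleotide reductase, and ORC6 were at -0.19 and -0.16, and the RNase H2 subunit RNASEH2A and POLD2 at 0.12 and 0.14.

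Of 25 genes of G1/S control 24 were tested and none was called. Below 0 were 18, 18 and 15 of them, at medians of -0.067, -0.10 and -0.048. That is 75%, 75% and 62.5%, against 53.8%, 49.0% and 59.5% of all features. CDKN2C, an inhibitor of CDK4 and CDK6, was at -0.43 (SE 0.25) with NP, lower in all 3 pairs, and CDC25A, the phosphatase that activates CDK2, at -0.28 (SE 0.10), while E2F3 and E2F5 were at 0.085 and 0.13. E2F8, a repressor of E2F targets, and FBXO5, an inhibitor of the anaphase-promoting complex, were lowest with metformin, at -0.32 and -0.30, and with phenformin, at -0.31 and -0.21. E2F4 had 0.19 and 0.20 in these comparisons, and E2F5 0.15 with phenformin. CDKN1A, the CDK inhibitor p21, had the highest value with metformin at 0.48 (SE 0.23), with pair differences of 0.63, 0.92 and -0.10, and 0.061 with phenformin. Its probe was well above background on 1 of the 6 DMSO and NP arrays, so its value of -0.21 with NP rests mostly on signals not above background. CCND1, the cyclin D of G1, was at -0.080, -0.048 and 0.084 with NP, metformin and phenformin, CDK2 at -0.043, -0.18 and -0.040, and RB1 at -0.0017, -0.16 and -0.052.

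Of 30 genes of G2 and mitosis 29 were tested, and none was called. With NP 26 of the 29 were below 0 (89.7%, against 53.8% of all features) at a median of -0.14. Lower in all 3 pairs were 23 (79.3%, against 18.9% of all features). The medians of the pairs were -0.20, -0.066 and -0.14. AURKA, a mitotic kinase, had -0.26 (SE 0.097) and an adjusted p of 0.973502 in limma, KIF20A, a kinesin of cytokinesis, had -0.24, and CENPF and CCNB2 had the highest values of 0.041 and 0.13. With metformin 23 genes were below 0 (79.3% against 49.0%) and 14 lower in all 3 pairs (48.3% against 20.3%). MKI67 was at -0.29, HMMR at -0.26, CDC20 at 0.10 and FOXM1 at 0.11. With phenformin 23 were below 0 (79.3% against 59.5%) but 2 lower in all 3 pairs (6.90% against 14.8%). The median of pair 1 was 0.14 and those of the others -0.090 and -0.15. HMMR and MKI67 were at -0.24 and -0.13 there, and CDC20 and CDC25C at 0.12 and 0.12.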

How the data were processed

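Per the labels, total RNA of A2058 cells was labelled with Cy3 and hybridized to 15 one-colour arrays. The authors deposited one scanner file per array with spot intensity values, made by Agilent Feature Extraction (10.7.3.1 in the file headers, 9.1 in the submitters' processing notes), which subtracts background and detrends but does not normalize between arrays. A second deposited table holds log2 values that the authors had scaled by the 75th percentile, none below 4. The array design is on hg19, and no coordinates of probes were used.

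Control spots were removed and spots called outliers were set to missing. The log2 intensity minus the 75th percentile of the array was averaged over the spots of a probe. Of 58201 probes, 32914 passed the background flag in every array of 1 or more groups. Symbols came from RefSeq accessions (31104 of 33080 such probes matched). The probe with the highest mean stood for a gene, and features with values on at least 8 arrays gave 26826. A linear model of group and replicate number was fitted with limma 3.58.1 (R 4.3.3, statmod 1.5.0), two-sided, and tables and plots were made with Python 3.11.15, pandas 2.3.3, numpy 2.4.6 and matplotlib 3.10.9. The series' design text describes independent experiments. Within a vehicle set, arrays of the same replicate number deviated together from their group means (correlations of 0.242 to 0.855 over 26628 features). For NP, the highest correlation with a DMSO array of another number was 0.289 against 0.306 in replicate 1. In replicate 2 it was 0.242 against 0.331, and in all other cases the highest was at most 0.13. Same-numbered arrays also shared a slide, so these correlations cannot tell the replicate number from the slide. The number was kept as a block because the methods' t-test is paired. The main fit shared that block between the DMSO and water sets, which these correlations, taken within a set, do not address. Blocks within each set gave more features an unadjusted p of at most 0.05 in limma (11.5%, 9.29% and 7.1% for NP, metformin and phenformin). Pair differences are treated minus vehicle of the same number. The test was also run on simulated data with a replicate effect shared by all groups and no slide effect. That run therefore cannot show how the test behaves with the slides of these arrays. The 3 arrays per group limit the precision.

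The genes, their roles, the 3 further lists (other replication genes, G1/S control, G2 and mitosis) and the tests were chosen with earlier results of these data known. Named with values per array were the 3 genes with the largest absolute fold change in each comparison and any called. From each list the 2 highest and 2 lowest in each comparison were named, and CDKN1A, CCND1, CDK2 and RB1 always. Alternatives covered the block and slide terms, background correction, normalization, filters, probe choice, the samples fitted, replicates left out, the methods' t-test and DMSO as comparator of the biguanides. Slide as a random block was added after seeing the data.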

Additional observations from a re-analysis of the deposited data

How the results depend on the processing

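None of the 36 genes was called in a comparison with the own vehicle, or in the differences between NP and the biguanides, under any alternative run. These included no replicate block (0 called in each), the replicate block within each vehicle set (0), a slide term beside the block (0), slide as a random block (0), each replicate left out (0 to 0) and the methods' t-test with a 1.5-fold threshold, with or without adjustment (0 and 0). With DMSO as the comparator 3 genes were called for metformin and 2 for phenformin, against 17.0% and 10.3% of all features. Of the 36 genes 10 and 9 were lower in all 3 pairs with the DMSO array of the same number. Unlike the pairs used elsewhere, these join arrays of different slides and vehicle sets, and no share of all features is given for them.

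The median log2 fold change of the 36 genes kept its sign for NP (-0.17 to -0.061) and metformin (-0.14 to -0.048) under every alternative. Scaled to the median of each array, it was -0.17 for NP, -0.14 for metformin and 0.25 for phenformin, where the median of all features moved to -0.096, -0.063 and 0.24. Relative to that shift the 36 genes were at -0.077, -0.077 and 0.015, and CDC6 and GINS3 with phenformin were at 0.0011 and 0.048. Leaving out 1 replicate gave -0.11 to -0.061 for NP, -0.12 to -0.068 for metformin and -0.11 to 0.030 for phenformin. Genes lower in all 3 pairs with phenformin numbered 0 of 36 when scaled to the array median, against 3.59% of all features. They numbered 7 of 36 with normexp background correction, against 9.35%, and 9 of 36 with quantile normalization, against 11.3%. The cause of these differences was not tested.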
